A study of Mus musculus with 3 samples.

Results

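Of the 55664 probes of a mouse gene expression array, 16188 carry the name of a stretch of chromosome in place of a gene or transcript accession. These region probes were chosen by name alone: every probe that is no control spot and whose systematic name gives a chromosome, a start and an end, in build mm9. The names cover 3543 regions on 20 chromosomes, and most names add a strand, F or R, so that the probes fall into 4607 combinations of region and strand. Most of a mammalian genome lies outside the exons of protein-coding genes, and part of it is transcribed into long noncoding RNAs. Some of these RNAs are spliced and polyadenylated, others are short-lived products of enhancers or of readthrough past a gene's end, and many are made in a few cell types only. A stretch whose transcribed strand is not known can be probed on both strands.

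The study collected 3 kinds of pancreatic cell by laser microdissection from frozen pancreas of 3 wild-type mice, 48 h after caerulein pancreatitis. Caerulein mimics the hormone cholecystokinin, overdrives acinar secretion and in excess injures the exocrine pancreas. The groups were acinar cells, which make digestive enzymes, duct cells, which line the channels that drain them, and ADM cells, acinar cells in acinar-to-ductal metaplasia, which lose enzyme production and take on features of duct cells. All 3 groups came from caerulein-treated animals, and no untreated group was analysed here. The sources used here give neither the strain of the mice nor their age. Each group had 1 array, and the labels do not say whether it held RNA from a single animal or from several. All values below therefore compare 3 arrays, without replicates and without a test, and their only measure of error is the scatter of repeated spots within an array. For 399 probes spotted 10 times the median standard deviation was 0.18 (log2) on the ADM array, 0.14 on the duct array and 0.23 on the acinar array. Region probes were spotted once each. From 1.181 ng of RNA per array, amplified cDNA was made and labelled with Cy3, which limits how well dim transcripts are measured.

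A level below is the log2 processed signal of a probe less the 75th percentile of all probes on the same array, an intensity of 72.2 on the ADM array, 95.7 on the duct array and 35.2 on the acinar array. A probe counts as detected when the scanner software flagged it as well above background. The lowest such level was -3.15 on the ADM array, -3.28 on the duct array and -2.28 on the acinar array, so the acinar limit was highest relative to the 75th percentile. As intensities these limits were 8.14, 9.88 and 7.25 on the ADM, duct and acinar arrays. Cell markers bore the labels out in part. All 10 acinar markers were lower by at least 2-fold on the duct array than on the acinar array, and 9 of 10 were lower on the ADM array. Of 10 duct markers, 9 were higher on the duct array than on the acinar array, while Cftr, the chloride channel of duct cells, was not well above background on any array. Macrophage markers were detected on all 3 arrays (10, 10 and 9 of 10 for ADM, duct and acinar). Of these, 9 exceeded their acinar level by at least 2-fold in ADM, and the list's summed signal relative to the 75th percentile was 304 in ADM, 72.5 in duct and 79.9 in acinar. Of 9 fibroblast markers, 8 exceeded their acinar level by at least 2-fold in ADM and 8 did so in duct, with summed signals of 333, 327 and 85.3 in ADM, duct and acinar. The 7 islet markers, insulin among them, were detected on every array. Of these, 4 exceeded their acinar level by at least 2-fold in ADM and 2 did so in duct, with summed signals of 1166, 652 and 745 in ADM, duct and acinar. Of 6 endothelial markers, 4, 4 and 2 were detected in ADM, duct and acinar. The part that these other cells played in the region results was not tested, and in bulk RNA fewer cells of a type and less RNA per cell cannot be told apart.

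Regions ranged from 62 to 7128487 bases in length, with a median of 7304. Both strands were probed in 1067 regions, 1 strand in 2473, and the names of 3 regions (13 probes) gave no strand. The F strand had 8167 probes and the R strand 8008. Most combinations of region and strand had more than 1 probe: 1807 had 3 probes, 973 had 5, 690 had 1, and the largest number was 10. The regions were not independent stretches, since 2101 of them (59.3%) overlapped another named region, and neighbouring results below can share sequence. The regions also differed in kind. In 382 of them (2151 probes) both ends were multiples of 25 bases, and these were long, with a median of 20913.5 bases, and probed on both strands in 62.8% of cases. The other 3161 regions had a median length of 5442 bases, and 26.2% were probed on both strands. No gene is named for these regions in the scanner tables, and no annotation of build mm9 was used here, so whether a region lies within, beside or far from a gene was not analysed.

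Region probes were detected less often than probes for coding transcripts on all 3 arrays. Of 16188 region probes, 6231 (38.5%) were well above background in ADM, 6314 (39.0%) in duct and 5033 (31.1%) in acinar. The corresponding shares were 59.9%, 59.7% and 48.8% for the 26690 probes named by a RefSeq coding accession, and 35.8%, 36.2% and 27.9% for the 1471 probes named by a RefSeq noncoding accession. Region probes thus lay close to annotated noncoding RNAs and well below messenger RNAs. The lower share on the acinar array moved with that array's higher detection limit. When the same lowest level of -2.28 was required on all 3 arrays, region probes were detected at 31.7% in ADM, 30.7% in duct and 31.1% in acinar. Coding probes under that common limit still stood lower in acinar, at 54.4%, 53.2% and 48.8%. With that common limit the 3 arrays differed in the share of coding probes but by at most about 1 percentage point in the share of region probes.

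Detection was shared among the cell types more often than it was particular to one. Over the region probes, 4121 (25.5%) were detected on all 3 arrays and 8368 (51.7%) on none, where 35.0% and 40.9% of all probes were. ADM and duct together, without acinar, accounted for 970 probes (5.99%), ADM and acinar for 316 (1.95%), and duct and acinar for 230 (1.42%). The shares over all probes were 7.55%, 2.30% and 1.56%. Detection on a single array was seen for 824 probes in ADM (5.09%), 993 in duct (6.13%) and 366 in acinar (2.26%), the last again on the array with the highest limit. These shares lay near those of all probes, 4.91%, 5.96% and 1.87%. The named strand made little difference. F probes were detected at 39.4%, 39.1% and 32.0% in ADM, duct and acinar, and R probes at 37.5%, 38.9% and 30.2%.

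The kind of region made more difference than its strand. Probes of regions whose ends were multiples of 25 bases were detected at 50.1%, 49.6% and 40.4% in ADM, duct and acinar, against 36.7%, 37.4% and 29.7% for the others. Within the former, the 142 regions probed on 1 strand stood out, with 70.6%, 69.2% and 59.1% of their 445 probes detected, shares above those of coding probes on the same arrays. Short regions were detected least. Probes of regions up to 1000 bases were detected at 28.3%, 28.8% and 22.5%, and probes of regions of over 30000 and up to 100000 bases at 42.8%, 43.6% and 35.7%. Leaving out the regions whose ends were multiples of 25 bases, none of which was as short as 1000 bases, gave 40.8%, 41.5% and 34.3% for the longer class. Regions that overlap another named region were detected at 40.4%, 41.3% and 32.4%, against 35.1%, 34.9% and 28.8% for regions that stand alone.

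Chromosomes differed as well, with the same ones at the top and the bottom on each array. Chromosome 17 had the highest share of region probes detected on all 3 arrays, 47.0% in ADM, 50% in duct and 38.6% in acinar over its 904 probes. Chromosome 14 followed in ADM and duct, at 45.3% and 43.7%, and stood at 33.1% in acinar. Chromosomes 9 and 10 were lowest. Chromosome 9 was at 28.7%, 29.9% and 23.5%, and chromosome 10 at 30.4%, 30.1% and 21.9%. Giving each combination of region and strand the same weight left chromosome 17 highest on each array, at 46.3%, 50.4% and 38.5%, and chromosome 10 lowest, at 29.7%, 31.4% and 22.2%. Neighbouring regions can share sequence and probes of a region can share a target, so these are descriptions of the tiled regions and not of whole chromosomes.

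The first comparison asked how region probes differed between duct and acinar cells. Differences were taken for the 6996 region probes detected on at least 1 of both arrays, with the undetected side set to its limit, so that such a difference is a lower bound. On this scale 876 region probes (12.5%) were at least 2-fold higher in duct, where 21.3% of all probes compared were, and 2287 (32.7%) were at least 2-fold lower, where 27.8% of all probes were. The choice of scale matters here: centring each array on its median in place of the 75th percentile shifted every duct minus acinar difference by 0.39, and the counts became 1228 higher (17.6%) and 1645 lower (23.5%), against 27.5% and 20.6% of all probes. A background correction by the normexp model gave 377 higher (5.39%) and 681 lower (9.73%), against 13.7% and 10.4% of all probes. Region probes were thus higher in duct less often than all probes under each of these settings, while their share of lower probes was above that of all probes under both scalings and below it after normexp. Set against coding probes on the same arrays, the shift does not depend on the scaling constant. Over probes detected on both arrays, the median difference was -0.70 for 4351 region probes and -0.19 for coding probes, a gap of -0.51, or -0.44 after normexp. Probes for annotated noncoding RNAs had a median of -0.63 and probes with other names -0.65, so the region probes lay close to both of these and below messenger RNAs.

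The ADM and acinar arrays gave a smaller contrast of the same kind. Of 6827 region probes compared, 841 (12.3%) stood at least 2-fold higher in ADM, where 18.3% of all probes were, and 1773 (26%) were lower, where 22.7% of all probes were. Centring on the median moved these differences by 0.23 and gave 1030 higher (15.1%) and 1320 lower (19.3%), against 22.0% and 18.1% of all probes. Normexp gave 292 higher (4.28%) and 284 lower (4.16%), against 8.90% and 5.58% of all probes. After normexp, then, lower region probes did not outnumber higher ones, and they were less frequent than among all probes. The median over 4437 region probes detected on both arrays was -0.55, and that of coding probes was -0.25, a gap of -0.30, or -0.23 after normexp. Between ADM and duct, 1529 of 7454 region probes (20.5%) stood at least 2-fold higher in ADM, against 21.7% of all probes, and 1171 (15.7%) were lower, against 20.4% of all probes. The median over probes detected on both arrays was 0.17 for region probes and -0.04 for coding probes, a gap of 0.20. That region median was 0.01 when arrays were centred on their medians, with the gap unchanged. The acinar array entered both comparisons with acinar cells, and the ADM array both comparisons with ADM, so the 3 sets of differences are not independent.

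The gap between region and coding probes was present at most signal strengths. For probes with a mean level over the 3 arrays between 0 and 2, far from the detection limits, the median duct minus acinar difference was -0.59 for 1214 region probes and 0.13 for coding probes. Between 2 and 4 the medians were -0.60 and 0.12, and above 4 they were -0.89 and -0.50. Below -2 they lay closer together, at -1.04 and -0.94. For ADM minus acinar the medians between 0 and 2 were -0.46 for region probes and -0.06 for coding probes, and above 4 they were -0.43 and -0.35. For ADM minus duct they were 0.18 and -0.17 between 0 and 2, 0.24 and -0.17 between 2 and 4, and 0.49 and 0.19 above 4. Probes detected on both arrays in the lowest bin had to pass the higher acinar limit, which favours negative differences there for both kinds of probe.

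Every chromosome showed the same direction. The median duct minus acinar difference of region probes detected on both arrays ran from -0.94 on chromosome 19 to -0.57 on chromosome 15, and the ADM minus acinar median from -0.70 on chromosome X to -0.39 on chromosome 16. The ADM minus duct medians ran from 0.08 on chromosome 2 to 0.31 on chromosome 4. Over all probes detected on both arrays, region probes among them, the 3 medians were -0.44, -0.39 and 0.07, of the same signs. Centring on the median would shift the chromosome medians of ADM minus duct by -0.16 together. Those of chromosomes 2, 3, 5, 8, 9, 10, 13, 14, 16, 18 and X would then lie below 0. The medians against acinar would stay below 0. The share of region probes at least 2-fold lower in duct than in acinar ran from 27.0% on chromosome 18 to 38.5% on chromosome 19. Among all probes compared that share was 27.8%.

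Several probes per region can be set side by side, which checks a single-array difference only as far as they target the same RNA. Whether the probes of a region do so was not analysed, and all probes of an array share its scaling. Among pairs of probes on the same strand of 1 region, both detected on both arrays and both at least 2-fold apart, 841 of 979 pairs (85.9%) had the same direction for duct minus acinar. The shares were 80.8% of 707 pairs for ADM minus acinar and 79.8% of 836 pairs for ADM minus duct. Pairs of coding probes with the same RefSeq accession had the same direction in 77.3%, 79.9% and 74.8%. These shares are not on an equal footing, because a share rises when most differences lie one way. For duct minus acinar, 7.88% of region probes detected on both arrays were at least 2-fold higher and 36.9% lower, against 23.1% and 26.8% of coding probes. Of the 841 region pairs with the same direction, 699 were lower in duct and 142 higher, against 255 and 180 coding pairs. Probes of neighbouring regions often shared a direction as well. Between a region and the next one within 10 kb the shares were 80.3%, 79.3% and 42.1% (71, 29 and 19 pairs), and at over 10 and up to 100 kb they were 74.0%, 73.5% and 60.8%. At over 100 kb and up to 1 Mb they were 79.7%, 59.1% and 72.7%, and beyond 1 Mb 67.1%, 68.3% and 56.8%. Over pooled pairs, the share within a region was thus the highest of these classes in each comparison, but by little in some of them. With each region or pair of regions weighted equally, the ADM minus acinar share within a region was 80.4%. It was 83.8% between next regions within 10 kb and 81.1% between opposite strands of 1 region, so the ranking did not hold there. The correlation of differences over all pairs detected on both arrays was 0.36, 0.36 and 0.32 on the same strand (3588, 3794 and 4554 pairs). It was 0.18, 0.02 and -0.03 between next regions within 10 kb, 0.04, 0.13 and 0.06 at over 10 and up to 100 kb, 0.10, -0.04 and 0.10 at over 100 kb and up to 1 Mb, and -0.01, -0.01 and 0.02 beyond. These pairs share arrays and can share targets, and 1 probe can enter several pairs, so the values describe and carry no p.

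Differences of probes on opposite strands of 1 region had the same direction in 80.0%, 80.3% and 69.4% of pairs for duct minus acinar, ADM minus acinar and ADM minus duct, and correlated at 0.26, 0.33 and 0.16. Those shares of direction were close to the shares between next regions within 10 kb for both comparisons with acinar. For coding accessions the correlation was 0.38, 0.37 and 0.28. Which strand of the amplified cDNA carried the dye was not stated in the labels, so the strand in a name cannot be read as the strand transcribed.

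Detection often differed among the probes of a region. Of 3917 combinations of region and strand with at least 2 probes, all probes were detected in 12.1% of cases in ADM, 11.4% in duct and 7.89% in acinar, and some but not all in 56.7%, 59.5% and 52.7%. If 1 probe was detected in ADM, a partner on the same strand was too in 54.7% of pairs, where 40.4% of probes in such pairs were detected at all, a partner on the opposite strand in 49.1%, where 40.1% were, and a probe of the next region over 1 Mb away in 38.7%, where 38.1% were. For coding accessions that share was 77.8%, where 65.4% were. Of the 1067 regions probed on both strands, 676 (63.4%) had a detected probe on both strands in ADM, 709 (66.4%) in duct and 556 (52.1%) in acinar. The count of regions with signal on both strands on all 3 arrays was 492. Signal from 1 strand only, the same strand on all 3 arrays, was seen in 143 regions, 74 on F and 69 on R, and 14 regions had F only on 1 array and R only on another.

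Few regions were carried by all of their probes. With at least 2 probes detected on both arrays, 20 of 1015 combinations of region and strand (1.97%) had every such probe at least 2-fold higher in duct than in acinar, and 141 (13.9%) had every such probe lower. Over regions and all other names with several probes, those shares were 6.5% and 13.3%. For ADM minus acinar 16 of 1042 (1.54%) were higher and 75 (7.20%) lower, where 4.3% and 8.74% of all names were. For ADM minus duct 59 of 1235 (4.78%) were higher and 41 (3.32%) lower, where 6.36% and 6.33% of all names were. Region probes thus stood below the background for increases against acinar and near it for decreases. Single probes were 2-fold apart in both directions in 74 of 1015 combinations for duct minus acinar, 68 of 1042 for ADM minus acinar and 90 of 1235 for ADM minus duct. For RefSeq coding accessions these counts were 118 of 1612, 80 of 1686 and 130 of 2010, so such disagreement was not particular to the regions. The regions described next were named by a fixed rule from those in which all measured probes moved alike. Since the rule ranked them by these differences, their values are given as a description.

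The pair of overlapping regions near the middle of chromosome 16 had the most probes behind it of the regions named as higher in duct. At chr16:43623175-43624069 on strand F the 3 probes had median levels of 1.99 in ADM, 3.18 in duct and -0.81 in acinar. At chr16:43623581-43642715 on strand R the 10 probes had medians of 1.81, 3.52 and -0.33. Duct was high, acinar low and ADM between them in both. Of the F probes, 2 were measured on both the duct and acinar arrays and were higher in duct by 3.63 and 4.0 (log2), a median of 14.1-fold. Of the R probes, 8 were so measured and were higher by 2.35 to 5.12, a median of 12.7-fold. The same R probes lay 0.30 to 2.43 higher in ADM than in acinar, and the 9 measured in ADM and duct had ADM minus duct differences of -0.52 to -3.25. The tenth R probe was detected in ADM, at -2.57, and undetected in duct, at -5.33. The F strand of the longer region, also with 10 probes, had medians of 1.95, 1.42 and 0.14 in ADM, duct and acinar, so there ADM and not duct was highest. A name inside it, chr16:43635730-43639104 on strand F, had medians of 1.40, 0.93 and 1.72 over 3 probes, with duct lowest and acinar highest.

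The other regions higher in duct than in acinar had less support. At chr11:119797116-119804012 on strand R the 3 probes had medians of -1.40 in ADM, 1.69 in duct and -1.64 in acinar, and the 2 measured on both arrays were higher in duct than in acinar by 2.44 and 3.34. The R probes of that name were high in duct alone, and their median ADM minus duct difference was -3.28, or 9.72-fold lower in ADM. The overlapping name chr11:119794849-119803349, with 5 probes per strand, did not have this order. By medians, duct was lowest on its F strand, at -2.14, and acinar highest on its R strand, at -2.83. Of these 2 strands, 1 had the opposite sign for duct minus acinar in measured probes, and both had the same sign for ADM minus duct. At chr4:40840725-40860875 on strand F the 5 probes had medians of 0.09, 1.91 and -1.12, with duct high, ADM between and acinar low, and 3 measured probes were higher in duct than in acinar by a median of 8.73-fold. The last, chr16:90038086-90127636 on strand F, rested on 2 of 7 probes, which were 2.07 and 3.16 higher in duct than in acinar. Taking all 7 probes, detected or not, turned that region's median difference to -0.80.

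The regions lower in duct than in acinar reached larger differences. At chr19:56820850-56837925 on strand F both probes were detected on all 3 arrays, at 2.68 and 4.35 in ADM, -1.62 and 0.78 in duct, and 3.43 and 5.05 in acinar. Duct was low, and ADM minus acinar differences were -0.71 and -0.75. The median difference was -4.67 for duct minus acinar, 25.4-fold, and 3.93 for ADM minus duct, 15.3-fold. The opposite strand of the same region had medians of 1.07, -0.01 and 1.59 over 2 probes, the same order with a smaller spread. At chr19:5841103-5845579 on strand F, 2 of 3 probes were detected, with duct minus acinar differences of -2.74 and -3.38 and ADM minus acinar differences of -1.31 and -1.48. Medians over its 3 probes were 2.44, 0.73 and 3.74. At chr3:38320928-38341869 on strand F the medians were 0.01 in ADM, -2.69 in duct and 2.0 in acinar over 4 probes, again with ADM between, and 2 probes measured in duct and acinar were lower in duct by a median of 9.51-fold. At chr8:27129927-27137444 on strand F the medians over 6 probes were highest in acinar, at -2.07, -3.82 and 1.42. The 2 probes measured on every array there had duct minus acinar differences of -2.79 and -4.97 and ADM minus acinar differences of -3.13 and -4.36. The probes there did not all have this order: 2 were detected in ADM, at 1.26 and -2.46, and not in acinar, the brighter at least 11.7-fold higher in ADM.

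A region on chromosome 4 differed between its strands, and it was the one region in which both strands passed 2-fold in opposite directions for duct minus acinar, out of 188 measured on both. Another 9 were lower on both strands and none was higher on both. At chr4:129376440-129391690 the 5 probes of strand R had medians of -5.35 in ADM, -2.95 in duct and 4.0 in acinar, with 1, 3 and 4 probes detected. The 5 probes of strand F had medians of -2.69, 0.12 and -2.0, with 3, 5 and 2 detected. The R probes of this name were thus high in acinar and the F probes high in duct. The 3 R probes measured on both arrays had duct minus acinar differences of -2.78, -5.41 and -6.75, and the 2 F probes were higher in duct by 1.66 and 2.26. In ADM both strands were low, and 3 R probes detected in acinar and not in ADM were at least 142-fold lower in ADM by their median. A name inside it on strand R, chr4:129380903-129390686, had the reverse order, with medians of -0.11, -2.26 and -3.41 in ADM, duct and acinar and 3, 2 and 1 of 3 probes detected. The longer region was singled out for its opposite strands after its values were seen.

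ADM stood above both other cell types in 3 of 4 overlapping names on chromosome 1 and in a region on chromosome 4. At chr1:175654606-175672031 on strand F the 5 probes had medians of 2.65 in ADM, -0.37 in duct and 0.69 in acinar. ADM was highest for each of the 5 probes. The 4 measured on all arrays were higher in ADM than in duct by 2.79 to 3.02, a median of 7.90-fold, and higher than in acinar by 1.25 to 2.71, a median of 5.40-fold. The overlapping region chr1:175660642-175671878 on strand R had medians of 0.57, -0.83 and -1.51 over 3 probes, with ADM highest for each. Its probes were higher in ADM than in duct by 1.03 to 1.61, and the 2 measured in acinar were higher in ADM by 2.08 and 3.91. Another name at the same place, chr1:175653557-175671940 on strand R, had medians of 1.97, -0.05 and 0.36, with all 3 probes detected on each array. The R strand of the longest name there, chr1:175654606-175672031, did not have that order: its 5 probes had medians of -0.78, -1.46 and -0.36, highest in acinar.

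At chr4:86267450-86277650 on strand F all 5 probes were detected in ADM, 4 in duct and 2 in acinar, with medians of 2.29, -0.46 and -3.37. The 2 probes measured in acinar were higher in ADM by 2.82 and 3.15, a median of 7.92-fold, and the other 3 were at least 16.1-fold higher in ADM by their median. The 4 measured in duct were higher in ADM by 1.61 to 3.79. Further regions with ADM above both were chr8:19792940-19798868 on strand F, with medians of 0.25, -1.25 and -1.48 over 3 probes, and chr2:153163620-153170845 on strand F, with medians of -0.51, -5.03 and -2.61 over 10 probes. In the latter, 8 probes were detected in ADM, 3 in duct and 2 in acinar. Just beside the chromosome 8 region, 1216 bases away, chr8:19800084-19800790 on strand R showed another order, with medians of -0.44 in ADM, 1.90 in duct and -2.06 in acinar. A longer overlapping name, chr8:19678750-20038750, was highest in acinar on strand F, with medians of -4.81, -5.38 and 0.16 over 5 probes. There 1, 1 and 5 probes were detected in ADM, duct and acinar. Its R strand was highest in ADM, with medians of 0.05, -1.73 and -1.17. In all, 6 of 971 combinations of region and strand measured in both comparisons (0.618%) had ADM above both others by at least 2-fold in all measured probes, and 11 (1.13%) had it below both. Over regions and all other names with several probes, those shares were 0.803% and 1.57%, both above those of the regions.

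Further regions were named for a higher level in ADM than in 1 partner, and in some of them ADM was above both. At chr15:77164450-77201325 on strand F all 5 probes were bright on every array, with medians of 6.43 in ADM, 5.30 in duct and 4.07 in acinar. All 5 were higher in ADM than in acinar by 2.06 to 2.55, a median of 5.13-fold, and higher than in duct by 0.44 to 2.46, a median of 3.98-fold. At chr1:134167181-134181457 on strand R the 3 probes stood at 2.22 to 2.92 in ADM and -1.61 to -0.68 in duct, so the arrays did not overlap. The median difference was 3.83, or 14.2-fold. Against acinar, 1 probe was 2.39 higher in ADM, and the 2 undetected in acinar were at least 28.5-fold higher in ADM by their median, so ADM was above both. An almost identical name on the same strand, chr1:134167181-134181386, did not show this. Of its 3 probes 0, 1 and 0 were detected in ADM, duct and acinar, with medians of -5.32, -5.50 and -3.69. A shorter name inside on strand R, chr1:134171292-134176062, had medians of 0.66, -3.88 and -2.38, with ADM highest. At chr4:3406175-3443875 on strand F, 3 probes were higher in ADM than in duct by 2.88 to 3.08, while 2 other probes were detected in duct and not in ADM, 1 of them at least 3.27-fold higher in duct. At chr7:134369091-134376366 on strand F, 2 probes were higher in ADM than in duct by 2.68 and 3.09, and the one of them detected in acinar was 2.53 higher in ADM than there. At chr4:73870498-73881323, where 2 F probes were 2.27 and 2.37 higher in ADM than in acinar, duct was lowest for these 2. Another F probe had a different order, at -3.74 and undetected in ADM, -2.12 in duct and 0.37 in acinar, with an ADM minus acinar bound of -3.52. Of its F probes, 2 detected in ADM and not in duct were at least 49.5-fold higher in ADM by their median, and of its 5 R probes, 2 were at least 39.9-fold higher. The other 3 R probes were detected on both arrays and lay within 2-fold, with ADM minus duct differences of -0.43 to 0.71. Of the 30 differences named from probes measured on both arrays, 3 had a further probe whose bound was at least 2-fold the other way. Of 52 overlapping names with a measured probe, 42 had a median difference of the same sign and 10 of the opposite sign.

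ADM lay furthest below acinar, among regions named by measured probes, at chr5:121759042-121789992 on strand F. Its 3 probes stood at -2.46 to -1.33 in ADM and 2.94 to 3.94 in acinar, with 2 probes detected in duct at 0.22 and 0.90. Acinar was highest for each probe, and the levels of ADM and acinar did not overlap. The differences from acinar were -4.27 to -5.91 in ADM, a median of 39.3-fold lower, and -2.04 and -3.23 in duct. The R strand of the region followed, with medians of -2.06, -1.23 and 0.38 in ADM, duct and acinar over 8 probes. At chr2:143988645-143993945 both strands were highest in acinar. Strand F had medians of -2.38, -2.92 and -0.84, with ADM minus acinar differences of -2.58 and -3.34 in 2 measured probes. Strand R had medians of -4.19, -3.79 and 0.95, with 2 probes detected in acinar alone and at least 28.1-fold lower in ADM and 30.7-fold lower in duct by their median. Also lower in ADM than in acinar were chr16:4867322-4874772 on strand R, in 2 probes with a median of 9.61-fold, and chr6:4841700-4847400 on strand R, with both probes at a median of 6.63-fold.

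Regions in which ADM lay below both other cell types included a nested pair on chromosome 6. At chr6:54591416-54597566 on strand F the medians were -2.12 in ADM, 0.55 in duct and -0.51 in acinar over 5 probes, and at chr6:54595084-54595833, within it, they were -2.20, 0.68 and -0.55 over 2 probes. The order was the same in both, which share sequence. The measured probes of the larger region differed by -1.81 to -3.46 for ADM minus duct and by -1.46 to -2.18 for ADM minus acinar. The opposite strand of the larger region did not follow, with medians of -2.14, -5.52 and -3.42 over 8 probes. At chr4:131734714-131741964 on strand R, 2 of 5 probes were measured, with ADM minus duct differences of -1.93 and -4.52. At chrX:20389063-20389702 on strand F, 2 of 3 probes had ADM minus acinar differences of -1.36 and -1.70, with duct minus acinar differences of 0.01 and 0.20. Lower in ADM than in duct were also chr15:68161768-68193518 on strand R, with medians of -2.68, 0.43 and -3.10, and chr4:123572090-123581365 on strand F, with medians of -3.57, -0.76 and -2.27. The F strand of the chromosome 15 region was highest in ADM, at -2.42, -4.70 and -3.96 over 4 probes. The overlapping chr15:68172597-68194740 on strand R was too, at -2.55, -4.19 and -3.96. Another overlapping name, chr15:68170864-68171544 on strand R, was highest in duct, at -5.23, -1.54 and -4.18.

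Some regions were detected in 1 cell type and not in the array it was compared with, which gives bounds in place of differences. In ADM, chr6:40693617-40720167 on strand F had 3 of 5 probes at 1.18 to 3.32 that were not detected in duct, at least 87.2-fold higher by their median. In acinar 2 of its 5 probes were detected, and 1 of these, at -0.99, was undetected in ADM and at least 4.45-fold lower there. The nested chr6:40699474-40719122 on the same strand had both of its probes detected in ADM, at -0.80 and 3.07, and neither in duct or acinar. The opposite strand of the larger region had no probe of 5 detected on any array, so the signal there came from F probes alone. In duct, chr12:76769763-76770169 on strand R had 2 of 3 probes, at 2.17 and 3.75, that were not detected in ADM or acinar. They were at least 68.9-fold and 37.8-fold higher in duct than in ADM and acinar by their median. The remaining probe was detected on every array, at -1.92 in ADM, -1.75 in duct and -0.85 in acinar. The region chr3:21964899-21974885 on strand F had 3 probes detected in duct and none in ADM, at least 37.4-fold higher by their median. Also in duct, all 3 probes of chr10:114762889-114763210 on strand F were detected, at 0.69 to 1.96, against 1 in ADM and none in acinar. In acinar, chr1:23334791-23335367 on strand F had 2 probes, at 0.94 and 3.13, that were not detected in duct, and chrX:100745320-100819322 on strand R had 2, at 0.96 and 2.38. They were at least 38.0-fold and 30.9-fold higher in acinar than in duct by their median. On chromosome X this was not the order of every probe: another R probe was 1.72 higher in duct than in acinar, and 7 of the 10 F probes of the region were detected in duct and none in ADM or acinar. Of 3917 combinations of region and strand with at least 2 probes, 380 (9.70%) had at least 2 probes detected in duct and not in acinar, and 98 (2.50%) the reverse. Over regions and all other names with several probes these shares were 7.10% and 1.59%. Between ADM and acinar, 339 (8.65%) had at least 2 probes detected in ADM alone of the pair and 77 (1.97%) in acinar alone, where 6.25% and 1.19% of all names did. Between ADM and duct, 186 (4.75%) had them in ADM alone and 205 (5.23%) in duct alone, where 3.01% and 3.21% of all names did. The number of probes per name was not matched, and the acinar array's higher limit favours the counts of probes not detected in acinar.

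The brightest region signals on all 3 arrays came from 1 stretch of chromosome 17. At chr17:39960567-39992817 the 4 F probes had medians of 9.50 in ADM, 9.39 in duct and 10.70 in acinar, and the 5 R probes had medians of 8.62, 7.86 and 9.76. The shorter names inside it, chr17:39979941-39981793 on strand R and chr17:39982023-39983277 on strand F, had medians of 9.58, 9.01 and 10.57, and of 8.84, 8.26 and 10.07. All 14 probes of these names were detected on every array, on both strands, and all were highest in acinar. No annotation of build mm9 was used, so which kind of RNA gave these signals was not analysed, and they cannot be read as a long noncoding RNA. The one other name among the 5 brightest on each array was chr7:108209996-108216032 on strand F, at 9.05, 8.50 and 9.47. Probes differ in sequence and in how strongly they bind, so the order of signals between probes is not an order of transcript amounts. Region probes as a whole contributed 10.9%, 10.5% and 10.7% of the summed signal of the ADM, duct and acinar arrays.

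Both strands had at least 2 probes in 878 regions, and in 200 of these the same strand was at least 2-fold brighter on each array. The 5 with strands furthest apart were named. At chr17:17462450-17488725 all 5 F probes were detected in ADM, duct and acinar, with medians of 5.20, 3.76 and 5.46, and 1 of 5 R probes was detected on each. A region inside it named on strand R alone, chr17:17481706-17482457, was nonetheless bright, with 3 of 3 probes detected on each array and medians of 4.78, 3.96 and 5.03. At chr17:3004525-3086000 both F probes were detected on all arrays, and of 5 R probes none was detected in ADM or acinar and 1 in duct. At chr13:44217172-44224947 both F probes were detected throughout, with 2, 0 and 1 of 5 R probes in ADM, duct and acinar. The other regions named for their strands, chr7:26054813-26063725 and chr2:151992806-152025456, had detected probes on both strands on every array.

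Long noncoding RNAs with a gene name offered a comparison with named transcripts. Of 31 such genes listed, 21 had probes, and 18, 18 and 16 of these were detected in ADM, duct and acinar. For duct minus acinar, 6 of 18 were at least 2-fold higher and 2 lower, where 21.3% and 27.8% of all probes were. For ADM minus acinar, 2 of 19 were higher and 4 lower, where 18.3% and 22.7% of all probes were. Neat1, the scaffold of nuclear paraspeckles, stood at 2.89 in ADM, 3.91 in duct and 1.62 in acinar, and Malat1, an abundant nuclear RNA, at 0.13, 1.19 and -0.82. Both were highest in duct, with duct minus acinar differences of 2.28 and 2.01. Mir17hg, the host transcript of the miR-17 cluster, was highest in acinar, at 0.65, 0.15 and 2.46. For ADM minus duct, 2 of 19 were higher and 7 lower, where 21.7% and 20.4% of all probes were. These genes have 1 to 3 probes each, and each value rests on 1 array.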

How the data were processed

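Laser-microdissected ADM, duct and acinar cells were measured on 1 Agilent 1-colour array each. The deposited scanner tables hold intensity on a linear scale, and the software that made them, Agilent Feature Extraction 11.5.1.1 per the file headers, took off background and spatial trend array by array. The series' deposited value table holds log2 values of 32939 probes, 7820 of them region probes. Against log2 of the processed signal, each of its columns was offset by a single constant, to within 0.001 for the 32905 probes compared.

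Control spots and spots flagged as non-uniform or population outliers were left out, which removed 6 region probes. No sample was averaged, no test was run, and a call means a difference of at least 2-fold (log2 of 1). Probes entered a comparison if either array flagged them as well above background. A dim side took its own signal or the array's lowest signal well above background, whichever was higher, and a bound on the wrong side was set to 0. A region's fold is that of the median difference over its probes measured on both arrays.

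Normexp (limma 3.58.1 in R 4.3.3, offset 50) used the median signals of spot and local background, as the tables used here hold no mean signal. Other work used Python 3.11.15, pandas 2.3.3 and numpy 2.4.6, and the code for differences was tested on simulated data. Alternatives tried were centring on the median or on probes detected on all arrays, normexp, both detection filters, the value table, outlier spots kept, the scanner's positive-and-significant flag and, chosen after seeing the data, equal weight per region.

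Up to 5 combinations of region and strand were named per rule: all probes measured on both arrays at least 2-fold the same way, ranked by the smallest difference and with the sign kept under scalings and normexp; at least 2 probes detected on 1 array only, ranked by brightness; the highest median level; ADM against both others; and strands furthest apart on all arrays. Chromosome 18 was left out of the naming. Members, lists and rules were chosen with earlier results of these data known. Coordinates are those of the probe names in build mm9. Gene symbols of listed genes came from RefSeq accessions. Probe sequences were not used here.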

Additional observations from a re-analysis of the deposited data

How the results depend on the processing

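With 1 array per cell type, no value here has a replicate check, and the dim acinar array limits what could be compared. No paired analysis was possible because each group had 1 array. Scaling on the median gave region medians of 0.00 for duct minus acinar, -0.085 for ADM minus acinar and -0.0070, a reversed sign, for ADM minus duct. Scaling on probes detected on all arrays gave -0.22 for ADM minus acinar and 0.24 for ADM minus duct. Normexp gave medians of -0.20 and -0.12 for duct minus acinar and ADM minus acinar. Its counts higher and lower were 377 and 681 for duct minus acinar, 292 and 284 for ADM minus acinar, and 555 and 429 for ADM minus duct (7.45% and 5.76%, against 9.28% and 10.3% of all probes). With probes detected on all 3 arrays alone, and so fewer probes, the counts were 322 and 1483, 310 and 1026, and 700 and 429, with medians of -0.69, -0.53 and 0.20. As shares these were 7.81% and 36.0%, 7.52% and 24.9%, and 17.0% and 10.4%, against 17.2% and 29.2%, 13.6% and 21.7%, and 18.2% and 16.2% of all probes. With no filter on dim probes they were 1540 and 9136, 1500 and 8156, and 2972 and 2205, and the medians against acinar were -1.21 and -1.01. These shares were 9.51% and 56.4%, 9.27% and 50.4%, and 18.4% and 13.6%, against 15.6% and 49.3%, 14.0% and 43.8%, and 19.8% and 16.8% of all probes. Same-direction pairs on 1 strand became 93.4% for ADM minus acinar under normexp. For ADM minus duct they became 86.0% under normexp, 83.7% with probes detected on all arrays, 69.2% with no filter and 76.5% with each region weighted equally. Opposite-strand pairs became 94.7% for ADM minus acinar under normexp and 60.6% for ADM minus duct with no filter. The flag for positive and significant signal raised detected region probes to 10713, 10657 and 9886 in ADM, duct and acinar, and acinar regions with both strands detected to 938. The cause of these moves was not tested. Of 46 differences of named regions, 39 remained at least 2-fold under normexp. The naming rule itself required the sign to be kept under the scalings and normexp. With no filter 1 reversed, chr16:90038086-90127636 on strand F, at -0.80 for duct minus acinar.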
